A study of Xenopus laevis with 4 samples.

Results

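The 6 gene models examined here belong to 4 genes, *heatr5b*, *wdr90*, *shcbp1* and *ubox5*, of the frog *Xenopus laevis*, measured in whole early gastrulae (stage 10.5). They were taken by name, both homeologs where a row existed, from 45098 gene models. The models *heatr5b.L*, *wdr90.L*, *shcbp1.L* and *ubox5.S* had been picked because their transcripts were nearly lost in embryos depleted of Gcn5 (Kat2a), a histone acetyltransferase found in the co-activator complexes SAGA and ATAC. Their own loss is therefore described and not tested. The other homeologs, *shcbp1.S* and *ubox5.L*, were included whatever their values, whereas *heatr5b* and *wdr90* each gave a single row, so that a second copy was not analysed here.

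RNA sequencing was performed on 2 samples of Gcn5-AS embryos, which received 0.8 ng of a DNA oligonucleotide antisense to *gcn5* at the 1-cell stage, and on 2 samples of water-injected control embryos. Each sample held 10 whole embryos labelled with the same stage, from outbred frogs. The paper describes impaired involution, developmental arrest and signs of apoptosis in *gcn5* knockdown embryos. Whether the groups were matched in developmental state was not tested. Samples were grouped by their knockdown label, because the treatment text of the controls repeats the Gcn5-AS injection. The labels do not say that the 2 samples of a group are from different clutches or cultures, so the p-values rest on a spread that may be technical. In whole embryos, fewer cells that express a gene and less RNA per cell cannot be told apart.

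The oligonucleotide is shown because it is the only agent that separates the groups. By their label the controls received water and no control oligonucleotide. In these libraries, effects of the injected DNA itself and of Gcn5 loss therefore cannot be told apart. Capitals mark the 7 central bases joined by unmodified linkages, and the flanks carry DMED-modified linkages. Its reverse complement is the strand that it was designed to bind in *gcn5* mRNA, and the sequences of the member transcripts were not searched for it here.
Gcn5-AS: tcaaaCACAAGCcgggtt
Target strand: aacccgGCTTGTGtttga

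The 4 genes act in separate processes. In mammalian cells Heatr5b, a protein of HEAT repeats, associates with the clathrin adaptor AP-1, which sorts cargo at the trans-Golgi network and endosomes, and Wdr90 is a WD repeat protein of the centriole wall. Shcbp1 binds the SH2 domain of Shc adaptor proteins and acts at the midbody in cytokinesis, and Ubox5 carries the U-box fold of a class of E3 ubiquitin ligases. *X. laevis* is allotetraploid, so that most genes exist as an L and an S copy on separate subgenomes.

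Values per library are normalized counts, that is, whole reads recovered from the deposited group means and divided by the size factor of the library. The libraries of a group are called X and Y, where X has the larger size factor, since the means do not show which is replicate 1 or 2. Reads assigned to genes numbered 3679948 and 3610092 in Gcn5-AS X and Y, against 4093025 and 2351039 in control X and Y. Early gastrula markers were present in every library, with normalized counts over 16 models that summed to 10569 and 8228 in the Gcn5-AS group against 4642 and 4576 in the control group, while 8 models of muscle, blood and neuron genes summed to 70.8 and 36.4 against 34.8 and 28.2. In the limma-voom fit, 9 of these 16 early gastrula models were called higher and none lower at an adjusted p under 0.1. The called models were both copies of *gsc*, *mix1*, *eomes* and *not*, and *sox17b.1.S*. Not called were *sox17b.1.L* and both copies of *sox17a*, *wnt8a* and *t*. The log2 fold changes of *t* were −0.35 (L) and 0.07 (S), and those of *wnt8a* 0.15 (L) and 0.50 (S). Over all models 4.46% were called higher. With scaling by total reads, 1 of the 16 was called higher. In these counts the targeted transcript itself was not called lower. Gcn5-AS embryos had 52.9 and 62.6 counts of *kat2a.L* against 50.4 and 103.5 in controls, and 13.7 and 35.5 counts of *kat2a.S* against 27.9 and 45.7 in controls. The limma-voom fit gave a log2 fold change of −0.26 for the L copy (95% interval −1.11 to 0.58, adjusted p 0.742). For the S copy it was −0.67 (95% interval −1.70 to 0.35, adjusted p 0.445). The libraries of both groups overlapped, and both intervals include a sizeable decrease. Without control Y the value of *kat2a.L* was 0.19, and without Gcn5-AS X that of *kat2a.S* was 0.08. By other measures, the paper reports depletion of *gcn5* mRNA by RT-qPCR at both ends of the transcript. It also reports less Gcn5 at promoters by chromatin immunoprecipitation and a rescue of the phenotype with human *GCN5* mRNA.

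Transcripts of *heatr5b.L*, the AP-1 partner, were reduced to a few reads. The Gcn5-AS libraries X and Y held 2 and 5 reads, against 324 and 127 in control X and Y. Normalized counts were thus 1.37 and 4.67 in Gcn5-AS embryos against 173.7 and 170.8 in controls. The controls nearly coincided, and the lower of them was 36.6-fold above the higher Gcn5-AS library. The ratio of group means was 57.0-fold lower in Gcn5-AS embryos (log2 ratio −5.83). From summed reads the decrease was 62.4-fold, with an exact 95% interval from 30.03 to 156 that covers counting error only. The remaining transcript amounted to 1.75% of the control mean. Gcn5-AS Y was 3.40 times Gcn5-AS X, a difference between 5 reads and 2.

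The centriolar gene *wdr90.L* had the most reads of the 6 models, 658 over the 4 libraries. Divided by the size factors these gave 7.56 and 13.1 for Gcn5-AS X and Y, against 235.3 and 260.9 in control X and Y. Both Gcn5-AS libraries lay far below both controls, 24.0-fold lower by group means (log2 ratio −4.59), with 4.16% of the control mean left. The counting interval of the decrease ran from 16.5-fold to 38.2-fold.

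The U-box ligase gene *ubox5.S* had no read in either Gcn5-AS library, against 51 reads in control X and 26 in control Y. Normalized counts in the controls were 27.3 and 34.96. A count of 0 over the Gcn5-AS group allows up to 3 reads, or a mean normalized count of 1.19, so that against this floor the transcript was at least 26.2-fold lower. With the counting error of the controls included, the exact 95% interval began at 19.7-fold. No other model with a control mean of at least 20 was without a read in both Gcn5-AS libraries. Its control level was the lowest of the 4 lost transcripts, so that depth limits how large a decrease could be seen.

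The midbody gene *shcbp1.L* was the least reduced of the 4 and the only one with a well-measured second copy. In Gcn5-AS X and Y its normalized counts were 6.87 and 6.54, against 96.0 and 63.2 in control X and Y. The Gcn5-AS libraries nearly coincided, whereas the controls differed by more than any other lost member's. Group means were 11.9-fold lower (log2 ratio −3.57), with a counting interval from 7.86-fold to 22.5-fold, and 8.42% of the control mean remained.

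**Figure D1:**
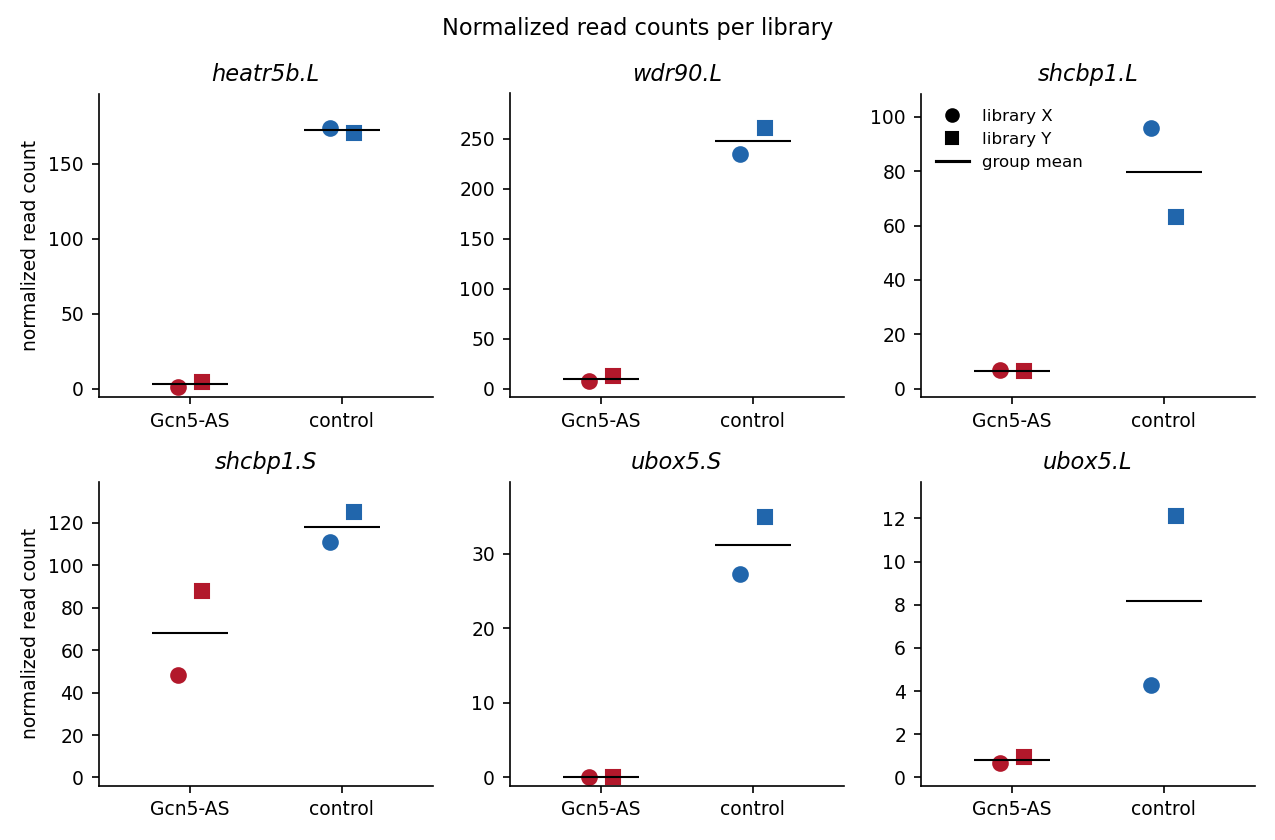
Normalized read counts (vertical axes, linear and including 0) of the 6 models in Gcn5-AS embryos (red, left) and control embryos (blue, right). Circles are library X, squares library Y and lines the group means. All Gcn5-AS libraries lie below both controls; the gap is narrow for *shcbp1.S*, at 87.8 against 111, and wide for *heatr5b.L*, at 4.67 against 170.8.

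To place these losses among all transcripts, the 8311 models with a control mean of at least 20 were ranked by the ratio of group means. Of these, 11 were at least 16-fold lower (0.132%) and 42 at least 8-fold lower (0.505%). The members were chosen from this tail, so their ranks are a description. The model *ubox5.S* ranked first because of its count of 0, *heatr5b.L* had rank 3 and *wdr90.L* rank 6, and 21 models had a smaller ratio than *shcbp1.L*. No threshold separated the members from the rest. Transcripts with losses of similar size were *rfc3.L*, encoding a subunit of the replication clamp loader, with 1 and 0 reads in Gcn5-AS X and Y against 27 and 23 in control X and Y, and *actr3.S*, encoding the Arp3 subunit of the actin-nucleating Arp2/3 complex, 30.5-fold lower. The SNARE gene *snap23.L* was 28.0-fold lower. Further models of this tail were *fyttd1.S* (an mRNA export factor, 17.03-fold lower) and *lclat1.S* (a lysocardiolipin acyltransferase, 16.5-fold lower), each with 5 reads in library X and none in library Y of the Gcn5-AS group. The other 3 models carry no gene symbol.

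**Figure D2:**
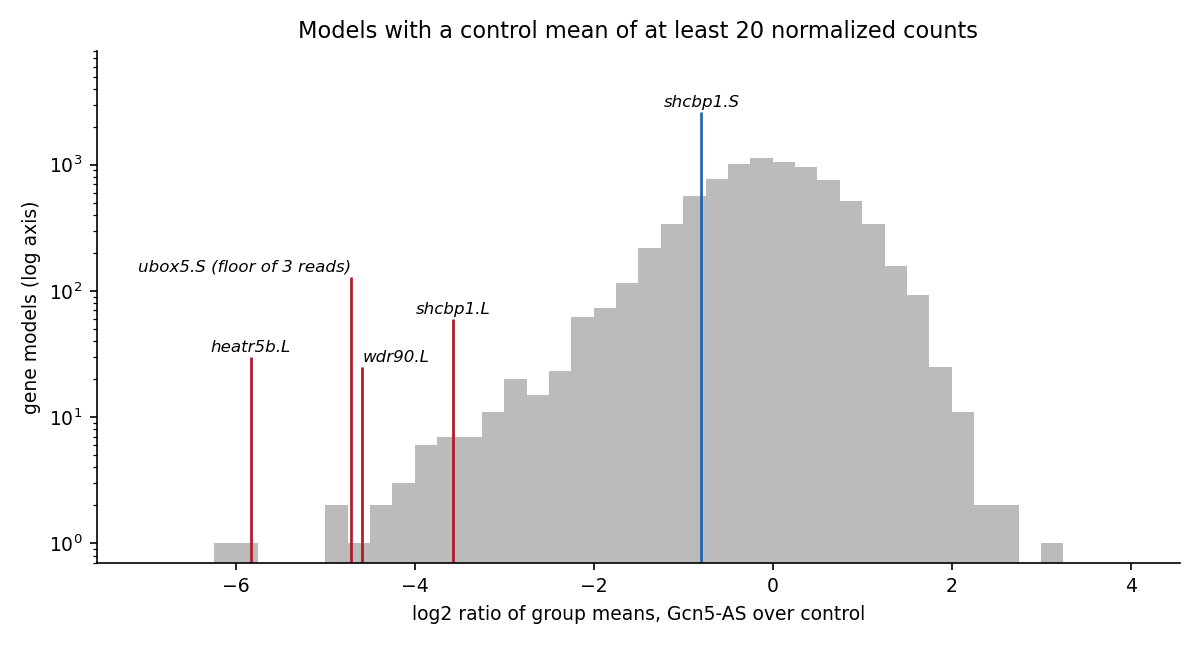
Distribution of the log2 ratio of group means, Gcn5-AS over control (horizontal axis), over the 8311 models with a control mean of at least 20 (grey bars, number of models on a log axis). Lines mark the members; the line of *ubox5.S*, which is not in the bars, is its value against the floor of 3 reads, −4.71, and *shcbp1.S* at −0.80 lies within the bulk.

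The models whose pattern lay nearest to each lost member were found from log2(normalized count + 1) in the 4 libraries, less the control mean, among 5361 other models with a symbol. These distances use the same libraries as the choice of members and are a description. For *wdr90.L* the nearest were *actr3.S* (Euclidean distance 0.57), *ubox5.S* (0.87) and *snap23.L* (1.15). For *heatr5b.L* they were *ubox5.S* (1.22), *actr3.S* (1.39) and *wdr90.L* (1.55), and for *ubox5.S* they were *wdr90.L* (0.87), *actr3.S* (1.199) and *heatr5b.L* (1.22). No other member was among the 3 models nearest to *shcbp1.L*. These included *tarbp1.L* (0.47), encoding an RNA methyltransferase, and *herc1-like.L* (0.51), a gene of the HECT ubiquitin ligase family. Distances of *shcbp1.L* to the other members were 1.79 (*wdr90.L*), 2.41 (*ubox5.S*) and 3.28 (*heatr5b.L*). Since only the control mean was subtracted, the distances also depend on the size of the fall, which was smallest for *shcbp1.L*. With no read of *ubox5.S* in the Gcn5-AS libraries, its size of fall here is set by the added count of 1 and its control level. The counts of *tarbp1.L* were 2.75 and 3.74 in Gcn5-AS embryos against 45.6 and 26.9 in controls, and like *shcbp1.L* it had a lower value in control Y than in control X.

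Whether the loss extended to the second copy was asked next. The S copy of *shcbp1* had 70 and 94 reads in Gcn5-AS X and Y, against 207 and 93 in control X and Y, or normalized counts of 48.1 and 87.8 against 111 and 125. Both Gcn5-AS libraries were below both controls, as in 25% of the 11272 models that were tested because their mean normalized count reached 10. The group mean was 1.74-fold lower, compared with 11.9-fold for *shcbp1.L*. In the limma-voom fit over all models the log2 fold change of *shcbp1.S* was −0.87 (95% interval −1.67 to −0.06, unadjusted p of 0.0353), with an adjusted p of 0.194, and it was not called at a false discovery rate of 0.1. At that threshold 4.17% of all models were called lower and 4.46% higher. Without Gcn5-AS Y the log2 fold change was −1.28 with an adjusted limma-voom p of 0.0405, and in the other settings for this copy alone, each further library left out among them, the adjusted p lay between 0.172 and 0.751. A decrease of *shcbp1.S* thus lay close to the spread between libraries.

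The balance of the 2 copies of *shcbp1* shifted with the loss of L. Reads of *shcbp1.L* made up 12.5% of the pair in Gcn5-AS X (95% Wilson interval 6.93% to 21.5%) and 6.93% in Gcn5-AS Y (3.40% to 13.6%), against 46.4% in control X (41.5% to 51.4%) and 33.6% in control Y (26.3% to 41.7%). The shares of the groups did not overlap, though *shcbp1.L* was chosen for its fall in these libraries. With the reads of both copies summed, *shcbp1* was 2.65-fold lower, with normalized counts of 55.0 and 94.3 in Gcn5-AS embryos against 206.9 and 188.3 in controls. Reads that match both copies equally may have been assigned to either or to none by the authors' counting, and this was not tested.

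The L copy of *ubox5* was scarce in all libraries. It had 1 read in each Gcn5-AS library, against 8 in control X and 9 in control Y, corresponding to 0.687 and 0.934 normalized counts against 4.29 and 12.1. The decrease from summed reads was 8.23-fold, with an exact 95% interval from 1.95 to 73.4 for counting error alone. Its mean of 4.50 was below the minimum for the test. When the minimum was lowered to a mean of 1, its log2 fold change was −2.42 (95% interval −4.999 to 0.16) and the limma-voom adjusted p 0.339, so that a decrease of this copy was not established at this depth. Most *ubox5* reads in the controls came from S, 86.4% in control X and 74.3% in control Y. With both copies summed, 2 reads remained in the Gcn5-AS group against 94 in the control group. Relative to the summed size factors this was 45.5-fold lower, with a counting interval from 12.3 to 381. This sum is a description only, since 77 of the 94 control reads belong to the S copy chosen for its fall.

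The second copies of other strongly reduced transcripts varied widely. Of the 42 models at least 8-fold lower, 9 besides *shcbp1.L* had a second copy with a control mean of at least 20. All 9 second copies were lower in Gcn5-AS embryos, 6 of them at least 2-fold and 2 at least 8-fold, and their median was 3.87-fold lower. Of all 3150 second copies of that abundance, 1575 were lower, 300 (9.52%) at least 2-fold and 10 at least 8-fold. The 2 that passed 8-fold were the L and S copies of *ranbp2*, a nuclear pore gene. Each was itself selected by its fall and is counted as the second copy of the other. The L copy of *actr3* was 7.62-fold lower beside 30.5-fold for S. The phosphate transporter gene *slc20a1* resembled *shcbp1*, with 13.2-fold for S and 1.39-fold for L. The value of 1.74-fold for *shcbp1.S* exceeded those of 2 of the 9, *slc20a1.L* and *edem3-like.S* (1.40-fold). These first copies were selected by their fall, and the difference between copies was not tested.

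**Figure D3:**
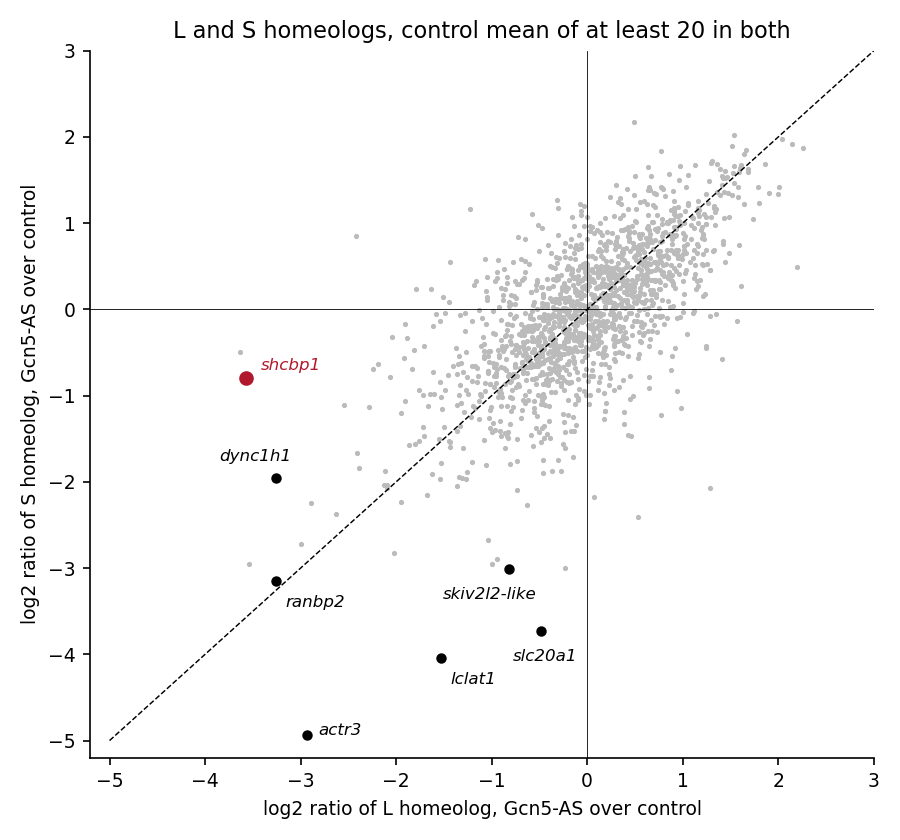
Log2 ratio of group means, Gcn5-AS over control, of the L copy (horizontal axis) and the S copy (vertical axis) of 1575 homeolog pairs with a control mean of at least 20 for both copies (grey). The dashed line marks equal ratios. The pair of *shcbp1* (red) lies at −3.57 and −0.80, and named black points are other pairs in which a copy was at least 8-fold lower; some such pairs are left grey.

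Genes adjacent to the members on the chromosome were examined next, using only the gene order of the RefSeq annotation of Xenopus_laevis_v10.1, an assembly other than the one the reads were mapped to. Of the 6 models, 4 were matched by symbol, all but *heatr5b.L* and *ubox5.L*. The 3 nearest measured protein-coding genes on each side gave 24 neighbours, with log2 ratios from −1.33 to 1.57 and a median of 0.15, and 9 were lower and 15 higher in Gcn5-AS embryos. In the limma-voom fit 1 of them was called lower (background 4.17%) and 1 higher (background 4.46%), while 8.63% of all models were called in either direction. Beside *wdr90.L*, the adjacent *rhot2.L*, a mitochondrial GTPase gene, had counts of 48.1 and 40.2 in Gcn5-AS embryos against 33.2 and 34.96 in controls, and *clcn7.L*, the nearest measured gene on the other side and encoding a chloride transporter, had 278 and 176 against 172 and 140. Beside *shcbp1.L*, the retromer gene *vps35.L* had 18.5 and 14.9 against 19.8 and 14.8, and *uqcrfs1.L*, a respiratory chain gene, 690 and 850 against 752 and 823. Beside *ubox5.S*, the phosphatase gene *ptpra.S* had 153 and 115 against 75.1 and 108.9, and on the other side *slc4a11.S*, a transporter gene 7 genes away, had 46.0 and 54.2 against 17.7 and 16.1. This nearest measured gene was the neighbour called higher (log2 fold change 1.51), and the one called lower was *rogdi.L* (−1.34), 12 genes from *wdr90.L*, both with an adjusted limma-voom p of 0.0677. The lowest log2 ratio among the 24, −1.33, was above those of *wdr90.L* (−4.59) and *shcbp1.L* (−3.57) and below that of *shcbp1.S* (−0.80).

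**Figure D4:**
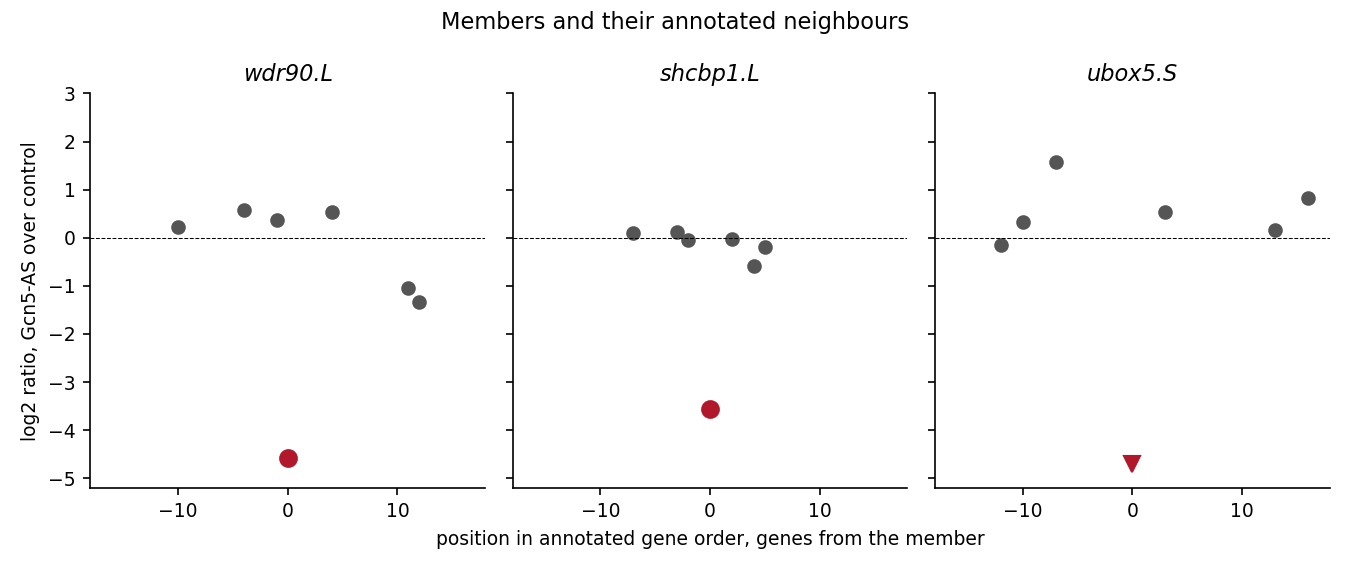
Log2 ratio of group means, Gcn5-AS over control (vertical axis), of *wdr90.L*, *shcbp1.L* and *ubox5.S* (red) and of the 3 nearest measured genes on each side (grey), by position in annotated gene order (horizontal axis, number of protein-coding genes from the member). The triangle is the value of *ubox5.S* against the floor of 3 reads, −4.71; the neighbours of all 4 matched models, *shcbp1.S* included, range from −1.33 to 1.57.

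Genes of the same pathways as the members were compared from 4 lists, which leave out the 6 models themselves. They were written with earlier results of these data known and carry no test as a group. Over all 11272 models tested the median log2 fold change was 0.02. Scaling by total reads in place of size factors moved that median to −0.15.

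Of 15 measured AP-1 and clathrin coat models, 4 were called lower and none higher (background 4.17% lower and 4.46% higher), and 11 lay below 0. The list median was −0.41 with size factors, −0.61 with scaling by total reads, and between −0.70 without Gcn5-AS Y and −0.24 without Gcn5-AS X. The closest relative of *heatr5b* was among them. The paralog, *heatr5a.L*, had 33.7 and 56.0 counts in Gcn5-AS embryos, against 163.0 and 208.4 in controls. Its log2 fold change was −2.09 (SE 0.39), with an adjusted limma-voom p of 0.00538, and it remained called in each setting run, including without any single library (largest adjusted p 0.0571). Transcripts of *ap1b1.S*, encoding the β1 subunit of AP-1, were at 9.62 and 11.2 against 50.9 and 49.8 (log2 fold change −2.26, SE 0.55, adjusted p 0.0231). Those of *cltb.S*, a clathrin light chain gene, were at 6.87 and 4.67 against 41.3 and 37.7 (−2.68, SE 0.73, adjusted p 0.0372). The clathrin heavy chain gene *cltc.S* had 63.2 and 90.6 against 212.3 and 207.1 (−1.48, SE 0.37, adjusted p 0.0256).

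The other copies of these 3 coat genes did not pass the test. The log2 fold changes were −0.91 for *ap1b1.L*, −0.36 for *cltb.L* and −0.34 for *cltc.L*, with adjusted limma-voom p values of 0.283, 0.770 and 0.624, and whether the copies of a pair differed was not tested. The calls of *ap1b1.S*, *cltb.S* and *cltc.S* were lost without Gcn5-AS X, without control X and without control Y, with adjusted p values from 0.111 to 0.396 and log2 fold changes from −2.97 to −1.21. That of *cltc.S* was also lost with scaling by total reads (adjusted p 0.148), where 3 models of the list were called.

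In the centriole and centrosome list none of 10 measured models was called and none had an unadjusted limma-voom p under 0.05. Over all models 8.63% were called in either direction, so few calls would be seen in a list this short. The member *wdr90.L* was chosen for its loss, and its difference from the list was not tested. The list median was 0.12 with size factors, −0.05 with scaling by total reads, and between −0.27 and 0.46 when single libraries were left out. The symbols found gave 23 models, and those with a mean below 10 were too scarce for the test. When the minimum was lowered to a mean of 1, the list median was −0.15. Members with the smallest p values were *plk4.L*, the kinase gene of centriole duplication, with 17.2 and 21.5 counts in Gcn5-AS embryos against 7.51 and 8.07 in controls, and the augmin gene *haus1.L*, with 14.4 and 27.1 against 27.3 and 56.5. The augmin gene *haus8.L* (log2 fold change 1.19) and *ofd1.L*, a gene of the distal centriole (−0.67), followed.

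Of 21 cytokinesis and midbody models, *rhoa.S* was called lower and none higher (background 4.17% lower and 4.46% higher). The share called lower, 4.76%, was near that background, and 14 models lay below 0 and 7 above. The list median of −0.20 was −0.32 with scaling by total reads, −0.46 without Gcn5-AS Y and 0.01 without Gcn5-AS X. The GTPase gene *rhoa.S*, whose product drives the cleavage furrow, had 28.9 and 34.6 counts in Gcn5-AS embryos against 89.5 and 57.8 in controls (log2 fold change −1.23, SE 0.42, adjusted limma-voom p 0.0913). It was called in 2 of 9 settings, the one given and the one without Gcn5-AS Y. The mitotic kinase gene *aurkb.L* had 464 and 418 against 198 and 277, with an adjusted limma-voom p of 0.129. The copies of *plk1* had log2 fold changes of 0.69 (L) and 0.67 (S), with adjusted p values of 0.243 and 0.275.

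None of the 18 measured models of U-box ligases and their E2 and Vcp partners was called, and none had an unadjusted limma-voom p under 0.05. Over all models 8.63% were called in either direction, so few calls would be seen here either. The list median was 0.08 with size factors and −0.08 with scaling by total reads, and between −0.12 and 0.20 when single libraries were left out. The conjugating enzyme gene *ube2d3.S* had 98.2 and 99.0 counts in Gcn5-AS embryos against 145 and 153 in controls (log2 fold change −0.59, adjusted p 0.338), and its L copy had a log2 fold change of 0.28. The U-box gene *ppil2.S* was at −0.93, and both copies of *ube2v2*, encoding an E2 variant, were at −0.99 (L) and −0.73 (S). The chaperone-linked U-box gene *stub1.L*, a neighbour of *wdr90.L*, was at 0.62 with an adjusted p of 0.466. A decrease on the scale of *ubox5.S* was not seen in any tested model of its list, the largest being *ube2v2.L*. Models too scarce for the test are not covered by this, among them the U-box gene *ube4a.L*, described under the other observations.

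**Figure D5:**
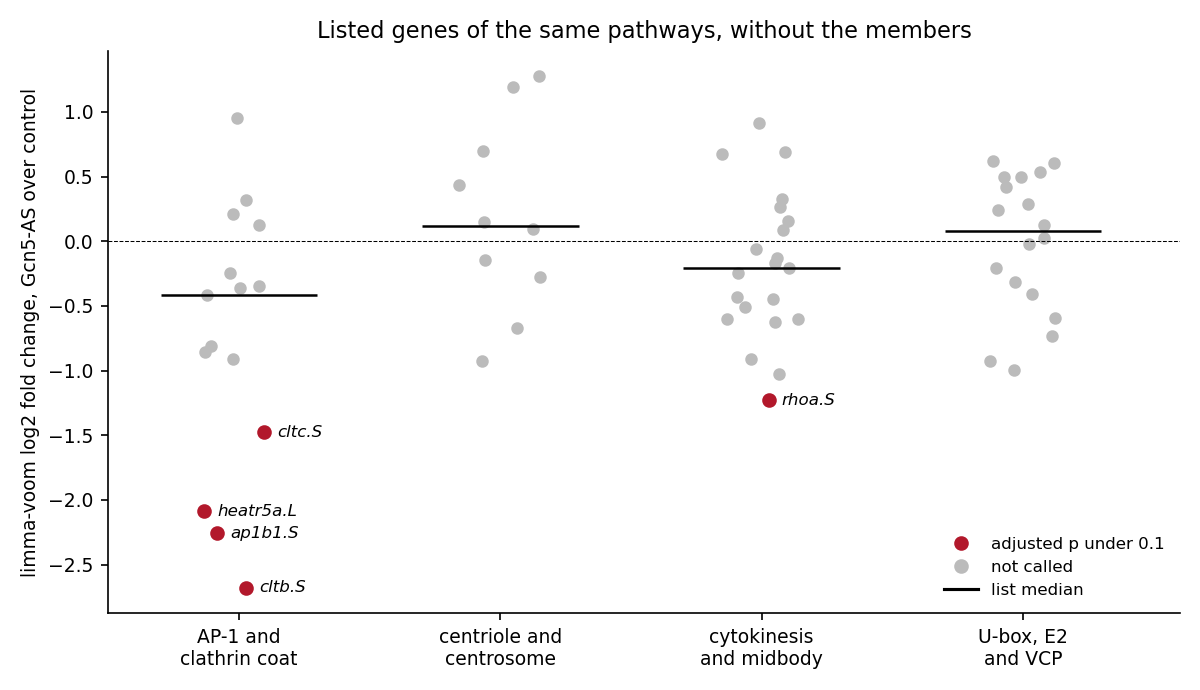
Limma-voom log2 fold change, Gcn5-AS over control (vertical axis), of 15, 10, 21 and 18 measured models in the 4 lists (horizontal axis), without the 6 member models. Red points passed an adjusted p under 0.1, grey points did not, and lines are list medians of −0.41, 0.12, −0.20 and 0.08; with scaling by total reads the second and the last median were −0.05 and −0.08.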

How the data were processed

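The authors depleted ribosomal RNA, sequenced single-end reads of 75 nucleotides, mapped them with STAR to JGI 9.1 allowing 1 mismatch, and ran DESeq. For the read counter, annotation release, strand setting and versions, the entry is not given in the sources used here, so reads of overlapping or antisense genes cannot be separated. The deposited signal columns hold, per group, counts that the authors scaled by size factors and averaged over 2 libraries. The deposited log2 fold changes and p-values, the authors' own comparison, were not used.

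Whole reads per library were recovered from these means. All 21410 Gcn5-AS and 21721 control means above 0 had exactly 1 solution within a relative tolerance of 3e-14. The size factors were 1.46 and 1.07 for Gcn5-AS X and Y, against 1.87 and 0.744 for control X and Y. Members and lists were chosen with earlier results of these data known.

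The main test was limma-voom (limma 3.58.1, R 4.3.3), two-sided, with the deposited size factors, over the 11272 models whose normalized counts averaged 10 or more, and a Benjamini-Hochberg adjusted p under 0.1. It was tested on simulated data. Ratios of group means carry no pseudocount. Intervals and floors of 3 reads cover counting error only, since reads without molecular identifiers are not independent molecules. The lists hold 23 (AP-1 and clathrin coat), 37 (centriole and centrosome), 32 (cytokinesis and midbody) and 23 (U-box) symbols, of which 13, 20, 19 and 14 were found. Named genes are the members, *kat2a*, called list members and up to 4 with the smallest p per list, models with a symbol, a control mean of at least 20 and a fall of at least 16-fold, and the 3 nearest patterns per member; *ap1b1.L*, *cltb.L*, *cltc.L*, *ranbp2*, *slc20a1*, *edem3-like.S*, *actr3.L*, *stub1.L*, *ube4a.L* and the chromosomal neighbours were named after their values were seen. A model that this rule would name is not reported here. Alternatives were total-read scaling, filters at means of 1 and 50, limma-trend, a pseudocount of 1, a threshold of 0.05, summed homeologs and leaving out each library. Python 3.11.15, numpy 2.4.6, pandas 2.3.3, scipy 1.17.1 and matplotlib 3.10.9 were used.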

Additional observations from a re-analysis of the deposited data

How the results depend on the processing

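The alternatives gave 24 values over the 4 nearly lost members together. All were ratios below 1, and the smallest decrease was 9.43-fold. The members were chosen for this loss in the same libraries, so these values are a description only. Left-out libraries moved the log2 ratio of *heatr5b.L* between −6.97 and −5.205, that of *wdr90.L* between −5.04 and −4.25, that of *shcbp1.L* between −3.84 and −3.24, and the value of *ubox5.S* against its floor between −4.88 and −3.47, and a pseudocount of 1 gave −5.01 for *ubox5.S*. For *ubox5.L* they gave −3.90 to −2.40 and the pseudocount −2.34. Summed copies of *shcbp1* ranged from −1.85 to −1.07, and those of *ubox5* from −5.86 to −5.29. Each sum includes a copy chosen for its fall. In the fit, *shcbp1.S* ranged from −1.28 to −0.41 without single libraries, and the summed reads of both copies gave −1.47, a description only, since they include the L copy chosen for its fall. The log2 fold change of *kat2a.L* ranged from −0.85 to 0.19 and that of *kat2a.S* from −1.27 to 0.08, with the values above 0 being 0.190 for *kat2a.L* without control Y and 0.0764 for *kat2a.S* without Gcn5-AS X. Of the AP-1 list 1 to 5 models were called lower without single libraries and 2 at means of at least 50; the centriole list had no measured model there. Over all models 503 were called higher and 470 lower. These counts were 19 and 171 with total-read scaling, 320 and 197 at means of at least 50, 223 and 242 at a threshold of 0.05, and, leaving out libraries, 162 and 116 without Gcn5-AS X, 1421 and 836 without Gcn5-AS Y, 6 and 76 without control X, and 120 and 130 without control Y. A fit with 1 library in a group assumes that it varies like the other group. No paired analysis was possible because the recovered libraries carry no replicate number. Depth limits *ubox5.L* and *ubox5.S* most.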

Other observations

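Changes of at least 4-fold were more often decreases. Of 8311 models with a control mean of at least 20, 42 were at least 8-fold lower in Gcn5-AS embryos, whereas 10 of 8117 models with a Gcn5-AS mean of at least 20 were at least 8-fold higher. At 4-fold the counts were 162 lower and 65 higher, whereas at 2-fold they were 905 lower and 1058 higher. Another U-box ligase gene, *ube4a.L*, was too scarce for the test and resembled the members, with 4 reads in Gcn5-AS X and none in Gcn5-AS Y, against 30 in control X and 12 in control Y, while *ube4a.S* had 37.1 and 23.4 normalized counts against 31.1 and 26.9. The decrease of *ube4a.L* from summed reads was 10.2-fold, with an exact 95% interval for counting error from 3.69 to 39.04. This model was picked for its fall, so the interval is a description only. Among the other models of the U-box list too scarce for the test, *ufd1l.S* was higher, with 10 and 4 reads against 3 and 1. The rest had log2 ratios from −0.11 to 0.10.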
